A study of Mus musculus with 24 samples.

Results

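The 36 genes described here encode aminoacyl-tRNA synthetases, the enzymes that join each amino acid to its tRNA. They were chosen by symbol and fall into 20 cytosolic and 16 mitochondrial enzymes, of 43626 genes in each fibroblast table. All 36 symbols matched exactly 1 row there. RNA was measured in 24 samples in 8 groups of 3. Mouse embryonic fibroblasts (MEFs, passage 2) were Mof knockout with Adriamycin, wild type with Adriamycin, Mof knockout with vehicle (DMSO) and wild type with vehicle. MPC5 cells, a single mouse podocyte line used after differentiation (passage 20), carried a Mof knockdown or a scramble control, each with Adriamycin or with vehicle. Adriamycin (doxorubicin), which poisons topoisomerase II and damages DNA, was applied for 24 h, with MEFs receiving 0.1 µg/ml and podocytes 0.25 µg/ml. Mof, also called Kat8, encodes a histone H4 acetyltransferase. How the gene was removed or silenced, and whether the 3 samples of a group were separate cultures, is not stated in the labels, so p-values reflect only how these samples vary, possibly for technical reasons.

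A synthetase activates its amino acid with ATP and transfers it to the matching tRNA, which then delivers it to the ribosome. Cytosolic and mitochondrial translation use separate sets of nuclear-encoded enzymes, except that the glycine and lysine enzymes (Gars, Kars) serve both compartments. Part of the cytosolic enzymes is held in a multisynthetase complex on scaffold proteins of the Aimp family. Many cytosolic synthetase genes are known targets of ATF4, the transcription factor of the integrated stress response, which binds C/EBP-ATF response elements.

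The deposited data are 4 comparison tables made by the authors, Mof-depleted against control cells for each cell type and drug condition, and hold no value per sample. Fold changes are on the log2 scale with their standard error (SE) as deposited, and a gene is called changed where the adjusted p of the authors' DESeq2 test lay below 0.05. Each table rests on 3 Mof-depleted and 3 control samples. Library depth is unknown; over all genes of a MEF table, mean normalized counts added up to 2.11e+07. The tables do not name a direction. The sign of Kat8 was used to set it to Mof-depleted over control: its log2 fold change in the authors' deposited tables was -1.71 ± 0.16 in MEFs with Adriamycin, -1.96 ± 0.20 in MEFs with vehicle, -1.24 ± 0.14 in podocytes with Adriamycin and -1.49 ± 0.15 in podocytes with vehicle. These values are therefore no test of the labels. The fibroblast collagen gene Col1a1 had a mean normalized count of 116732 and 180211 in the MEF tables with Adriamycin and vehicle. Of 12 markers of macrophages and leukocytes, 6 of 11 tested rose in knockout MEFs with vehicle, against 17.8% of all tested genes. With Adriamycin, where 16.6% of all tested genes were higher, none of 10 tested was called by DESeq2, also at an unadjusted p below 0.05. Their mean normalized counts summed to 5557 with Adriamycin and 3710 with vehicle, with no listed marker at 0, and their part in the results below was not tested. Of 4 skeletal muscle markers, the 2 tested rose in knockout MEFs in either drug condition. Of 3 epithelial markers tested, 1 rose with Adriamycin and 2 with vehicle, while no endothelial marker was called. The part of these markers was not tested either. The podocyte tables list only called genes. Of 10 podocyte markers, 5 were higher and 1 lower in knockdown cells with Adriamycin, against 27.8% and 27.9% of all tested genes. With vehicle 3 were higher, against 8.70%. Synpo and Podxl were among those higher in both, and a marker that is not listed there may still have been expressed. In bulk RNA, fewer cells of a type and less RNA per cell cannot be told apart.

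Promoter sequence is shown for the cytosolic enzymes that carry the letters of a C/EBP-ATF response element. RefSeq windows (GRCm38.p6) of 250 bases before to 50 bases after the start site were matched for 26 of the 36 genes. The other 10 had no window and were not searched. The core letters TGATGNAA, searched on both strands, were in 5 of 12 cytosolic genes (41.7%) and 0 of 14 mitochondrial genes, against 4.51% of all 27025 genes with a window. The stricter TGATGCAA was in 4 of the 12 cytosolic genes (33.3%) and 0 of the 14 mitochondrial genes, against 1.03% of all genes. The E-box letters CACGTG, bound by MYC among other factors, were in 4 of 12 cytosolic genes (33.3%) and 1 of 14 mitochondrial genes (7.14%), against 8.09% of all genes. Matches are descriptions and not shown to be sites, and no match says only that these letters are absent from this window. Of the 5 genes with TGATGNAA, Aars, Gars and Yars rose in knockout MEFs with Adriamycin, whereas Iars and Tars were not called. Cars, Sars and Vars, which had no match or no window, also rose there, and 16.6% of all tested genes were higher. With vehicle only Aars of the 5 rose, as did Sars, against 17.8% of all tested genes. In knockdown podocytes with Adriamycin all of the 5 but Yars, which was not listed, rose, against 27.8% of all tested genes. Dars, Eprs, Farsb, Kars, Lars, Mars and Nars, with no match or no window, rose there too. A link between the letters and the fold changes was not tested. In the whole windows of Aars (alanine; chr8:111033592-111033891, plus strand) and Tars (threonine; chr15:11399609-11399908, minus strand), written 5′ to 3′ on the gene's strand, capitals mark TGATGNAA or its reverse complement, and CACGTG.
Aars: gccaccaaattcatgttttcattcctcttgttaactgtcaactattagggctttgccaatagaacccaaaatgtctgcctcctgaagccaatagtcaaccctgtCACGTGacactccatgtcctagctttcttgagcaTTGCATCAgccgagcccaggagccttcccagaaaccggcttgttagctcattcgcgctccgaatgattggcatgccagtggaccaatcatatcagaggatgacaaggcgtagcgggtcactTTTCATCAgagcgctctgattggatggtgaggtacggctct
Tars: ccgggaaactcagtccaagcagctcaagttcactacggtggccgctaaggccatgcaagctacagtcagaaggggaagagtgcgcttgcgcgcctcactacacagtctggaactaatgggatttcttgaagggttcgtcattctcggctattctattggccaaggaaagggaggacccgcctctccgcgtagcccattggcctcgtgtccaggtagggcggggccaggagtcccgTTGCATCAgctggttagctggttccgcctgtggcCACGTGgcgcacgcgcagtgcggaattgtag

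Stretches of 30 bases show the same letters in the other 3 genes, again on the gene's strand and with TGATGNAA or its reverse complement in capitals. They come from Gars (glycine; chr6:55037960-55037989), Iars (isoleucine; chr13:49682126-49682155) and Yars (tyrosine; chr4:129189895-129189924), all on the plus strand.
Gars: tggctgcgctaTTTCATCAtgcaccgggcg
Iars: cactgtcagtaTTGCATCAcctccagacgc
Yars: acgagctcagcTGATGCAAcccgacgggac

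The mRNAs of the cytosolic enzymes were more abundant than those of the mitochondrial enzymes. Per kb of exon in GENCODE M21, the mean normalized count over the samples of the vehicle table ran from 275 to 2370 for the 20 cytosolic genes (median 720) and from 26.6 to 261 for the 16 mitochondrial genes (median 61.9), with no overlap. In the Adriamycin table the cytosolic genes ran from 227 to 1861 (median 490) and the mitochondrial genes from 28.9 to 291 (median 71.2). There Lars2 (leucine) and Iars2 (isoleucine) were the highest mitochondrial genes, and Lars2 lay above Eprs (glutamate and proline), Farsa (phenylalanine, alpha subunit), Cars, Yars and Lars. The glycine enzyme gene Gars and the asparagine enzyme gene Nars were the highest cytosolic genes with vehicle, at 2370 and 2307 counts per kb. These levels pool Mof-depleted and control samples, and the MEF tables were normalized separately, so the levels of the drug conditions were not compared by a test.

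**Figure D1:**
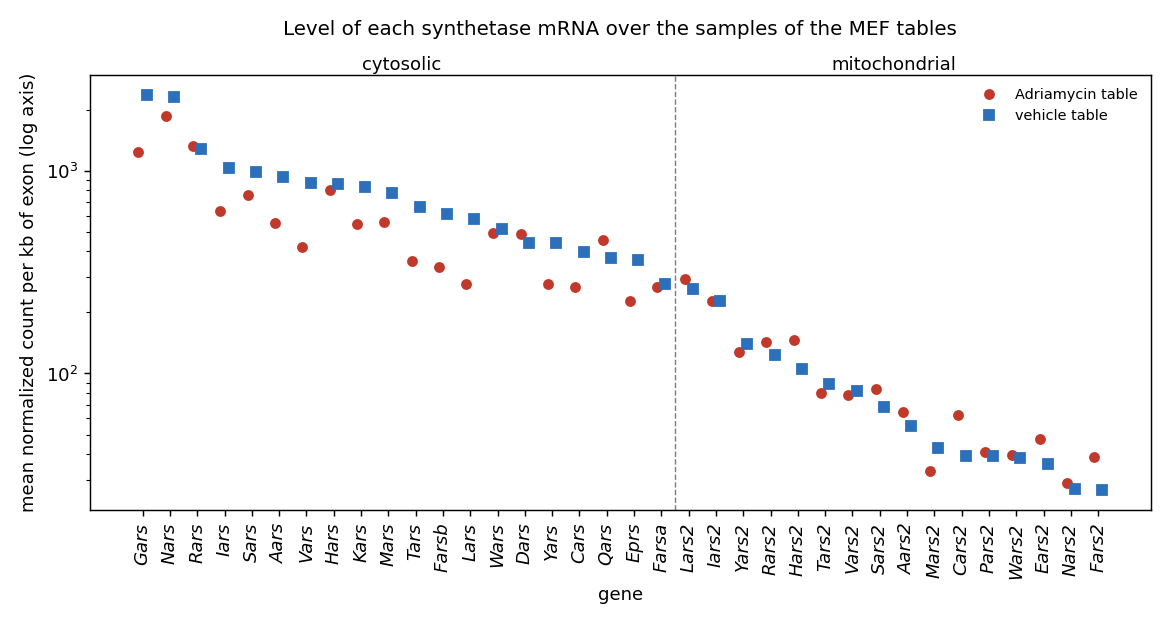
Mean normalized count per kb of exon (log axis) of each of the 36 synthetase genes in the MEF tables with Adriamycin (circles) and vehicle (squares), averaged by the authors over knockout and wild-type samples, with no error available. With vehicle, cytosolic genes lie between 275 and 2370 and mitochondrial genes between 26.6 and 261.

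With Adriamycin, Mof knockout MEFs had more mRNA than wild-type MEFs for 6 cytosolic synthetases: Aars, Cars (cysteine), Gars, Sars (serine), Yars and, narrowly, Vars (valine). Farsb, the beta subunit of the phenylalanine enzyme, and Qars (glutamine) fell. Among mitochondrial enzymes none rose, also at an unadjusted p below 0.05, and 4 fell: Aars2 (alanine), Hars2 (histidine), Rars2 (arginine) and Sars2 (serine). In all, 8 of 20 cytosolic (40.0%) and 4 of 16 mitochondrial genes (25.0%) changed, against 32.7% of all 14139 tested genes, or 40.1% of those with a mean normalized count of at least 1000 and 35.6% of those between 100 and 1000. By direction, 6 cytosolic and 0 mitochondrial genes were higher, against 16.6% of all genes, and 2 cytosolic and 4 mitochondrial genes were lower, against 16.1%. The median log2 fold change was 0.03 for cytosolic and -0.14 for mitochondrial genes, against -0.02 over all tested genes. Tested genes with a mean normalized count of at least 1000 had a median of 0.07, against which the cytosolic median was lower, at -0.04, so its direction depends on the genes it is set against.

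Aars (ENSMUSG00000031960, chr8:111033144-111057664, plus strand, GRCm38) rose in knockout MEFs with Adriamycin by 0.74 ± 0.09, or 1.67-fold, at a mean normalized count of 5120 (adjusted p 5.85e-13, DESeq2) in the authors' deposited table. Sars (ENSMUSG00000068739, chr3:108424865-108445209, minus strand) rose by 0.68 ± 0.09, or 1.60-fold (adjusted p 6.00e-11, DESeq2), in the authors' deposited table. Cars (ENSMUSG00000010755, chr7:143557230-143600090, minus strand) rose by 0.78 ± 0.14, or 1.71-fold, the largest value among the 36 genes in this comparison, and Gars by 0.53 ± 0.09 in the authors' deposited table. Smaller increases were those of Yars (0.25 ± 0.08) and Vars (0.22 ± 0.09, adjusted p 0.0494, DESeq2) in the authors' deposited table. The Vars call ended with an adjusted p of 0.0941 when every listed p was adjusted without the filter on low counts. Of the cytosolic genes that fell, Farsb was at -0.33 ± 0.11 and Qars at -0.23 ± 0.08 in the authors' deposited table. The 12 cytosolic genes not called lay between -0.18 (Mars, methionine, and Wars, tryptophan) and 0.20 (Nars).

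Mitochondrial enzymes that fell in knockout MEFs with Adriamycin did so by 0.40 to 0.56 on the log2 scale. Hars2 was at -0.56 ± 0.12, Sars2 at -0.55 ± 0.15, Aars2 at -0.49 ± 0.15 and Rars2 at -0.40 ± 0.15 in the authors' deposited table. These levels were 68.0%, 68.1%, 71.1% and 75.8% of wild type. Lars2 (leucine) was not called, at 0.24 ± 0.22, whose SE was the largest among the 36 genes in that table.

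With vehicle, the same comparison gave mostly lower values. Aars and Sars again rose, while 8 cytosolic genes fell: Farsa and Farsb, Hars (histidine), Kars (lysine), Mars, Qars, Vars and Wars. Of the mitochondrial genes, Lars2 rose and Aars2, Hars2, Sars2, Tars2 (threonine) and Yars2 (tyrosine) fell. In all, 10 of 20 cytosolic and 6 of 16 mitochondrial genes changed, against 37.5% of all 15605 tested genes, or 47.5% of those with a mean normalized count of at least 1000 and 46.2% of those between 100 and 1000. Lower were 8 cytosolic and 5 mitochondrial genes, against 19.6% of all genes, and higher were 2 and 1, against 17.8%. The median log2 fold change was -0.05 for cytosolic and -0.19 for mitochondrial genes, against 0.01 over all tested genes.

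Sars rose in knockout MEFs with vehicle by 0.53 ± 0.11 (adjusted p 7.25e-06, DESeq2) and Aars by 0.51 ± 0.10 (adjusted p 2.23e-06, DESeq2) in the authors' deposited table. Decreases of cytosolic genes stayed under 1.5-fold: Farsb was at -0.44 ± 0.10, Kars at -0.41 ± 0.08, Mars at -0.40 ± 0.08 and Hars at -0.37 ± 0.08 in the authors' deposited table. Wars was at -0.34 ± 0.10, Qars at -0.33 ± 0.09, Farsa at -0.26 ± 0.09 and Vars at -0.24 ± 0.08 in the authors' deposited table. Both subunits of the phenylalanine enzyme were thus lower. Wars is known as an interferon-inducible gene in human cells. Of 8 interferon genes fixed for comparison, 7 rose in knockout MEFs with vehicle (median log2 fold change 3.95) and 6 with Adriamycin (median 1.45), against 17.8% and 16.6% of all tested genes. Wars itself was at -0.18 ± 0.09 with Adriamycin, not called, and lower with vehicle in the authors' deposited table. In knockdown podocytes with Adriamycin 4 of the 8 were higher and 3 lower, against 27.8% and 27.9% of all tested genes. Wars was lower there, at -0.27 ± 0.06 in the authors' deposited table. With vehicle 5 were higher in podocytes, against 8.7% of all tested genes, and Wars was not listed.

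Aars2 (ENSMUSG00000023938, chr17:45506841-45520843, plus strand) had the largest decrease of the 36 genes with vehicle, at -0.85 ± 0.15, which is 55.4% of wild type (adjusted p 5.62e-08, DESeq2), in the authors' deposited table. Sars2 was at -0.70 ± 0.16, Hars2 at -0.59 ± 0.11, Yars2 at -0.50 ± 0.12 and Tars2 at -0.45 ± 0.11 in the authors' deposited table. Lars2 (ENSMUSG00000035202, chr9:123366927-123462666, plus strand) moved the other way, at 1.04 ± 0.10, or 2.06-fold (adjusted p 1.07e-21, DESeq2), in the authors' deposited table. Of its stretches of 31 bases, 1.09% occur in transcripts of other genes, including a run of 52 bases in Gm15564. Gm15564, chosen after its values were seen, was at 0.54 ± 0.32 in MEFs with Adriamycin (not called), at 1.35 ± 0.24 with vehicle and at -1.49 ± 0.35 in podocytes with Adriamycin in the authors' deposited tables. The mitochondrial ribosomal RNA mt-Rnr1, chosen in the same way, was at 0.65 ± 0.11, 1.02 ± 0.08 and -0.75 ± 0.07 in MEFs with Adriamycin, MEFs with vehicle and podocytes with Adriamycin in the authors' deposited tables. Gm15564 and mt-Rnr1 shared the signs of Lars2 here but were picked with their values known. With Adriamycin, mt-Rnr1 was called in MEFs, where Lars2 was not. In the same order, Gm26917 was at 1.98 ± 0.22, 1.70 ± 0.13 and -0.65 ± 0.10 in the authors' deposited tables. The ribosomal RNA mt-Rnr2 was at 0.49 ± 0.35 (not called), 0.67 ± 0.07 and -0.65 ± 0.12 in the authors' deposited tables. Gm26917 and mt-Rnr2 were also lower in podocytes with vehicle, where Lars2 was not listed and its value is not known. What these genes add to the Lars2 values was not tested.

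**Figure D2:**
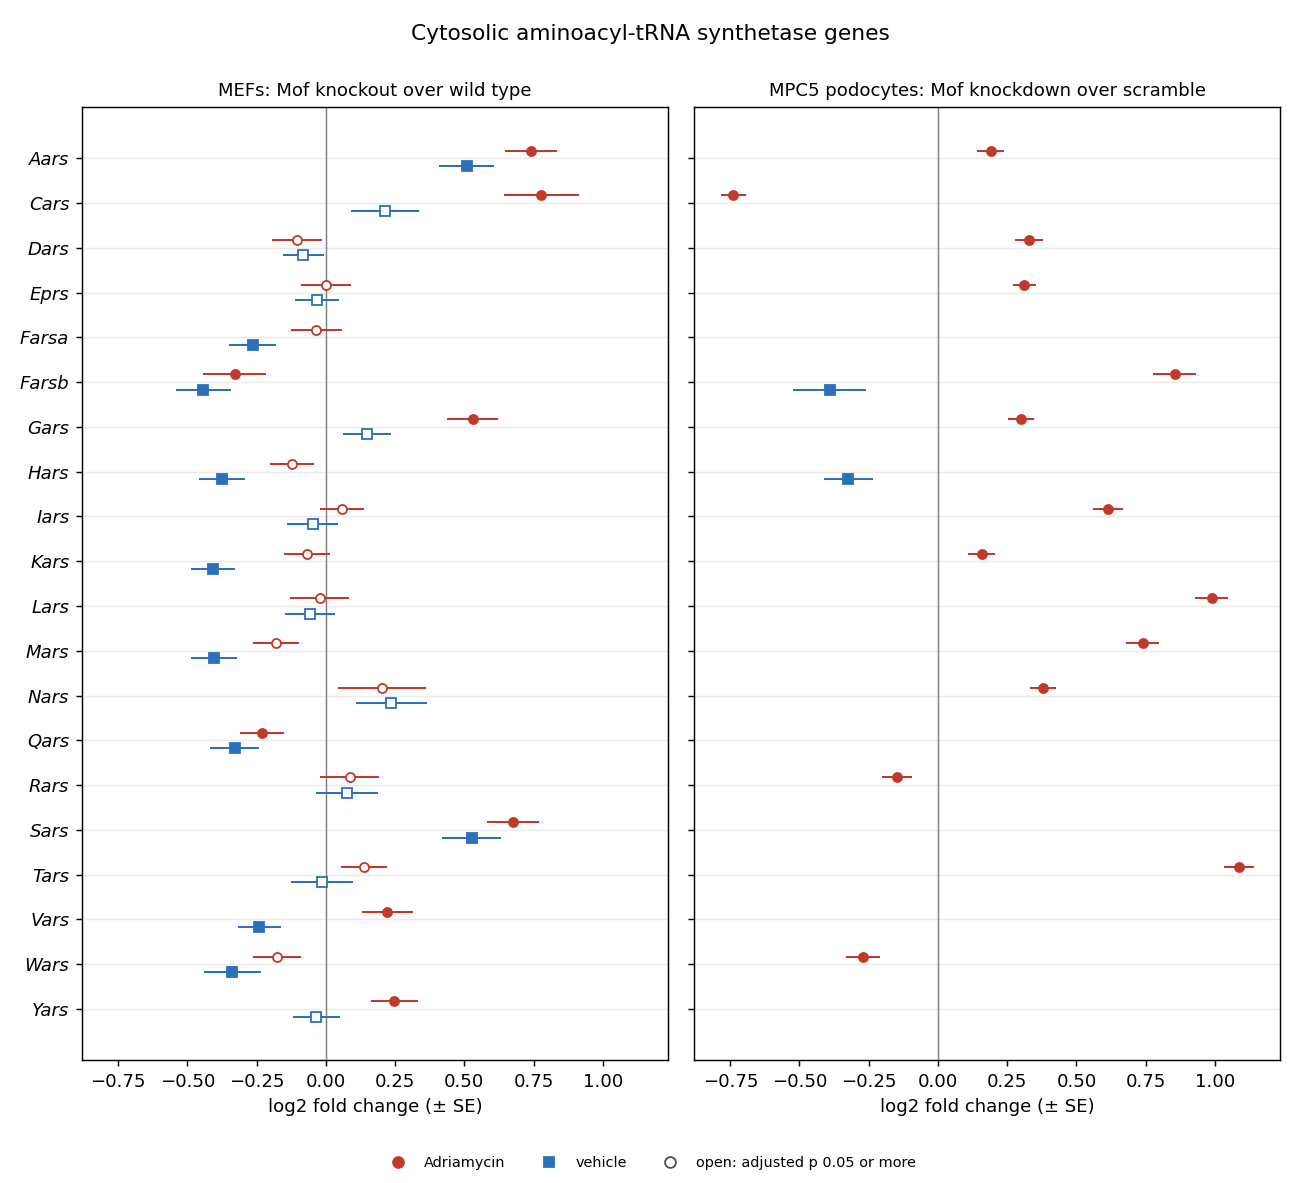
Log2 fold change ± SE of the 20 cytosolic synthetase genes in the authors' tables, MEFs on the left (Mof knockout over wild type) and podocytes on the right (Mof knockdown over scramble), with Adriamycin (circles) and vehicle (squares); filled points have an adjusted p below 0.05, and podocyte genes without a point were not listed. Aars and Sars lie above 0 in both MEF comparisons, and 11 of the 14 listed genes lie above 0 in podocytes with Adriamycin.

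**Figure D3:**
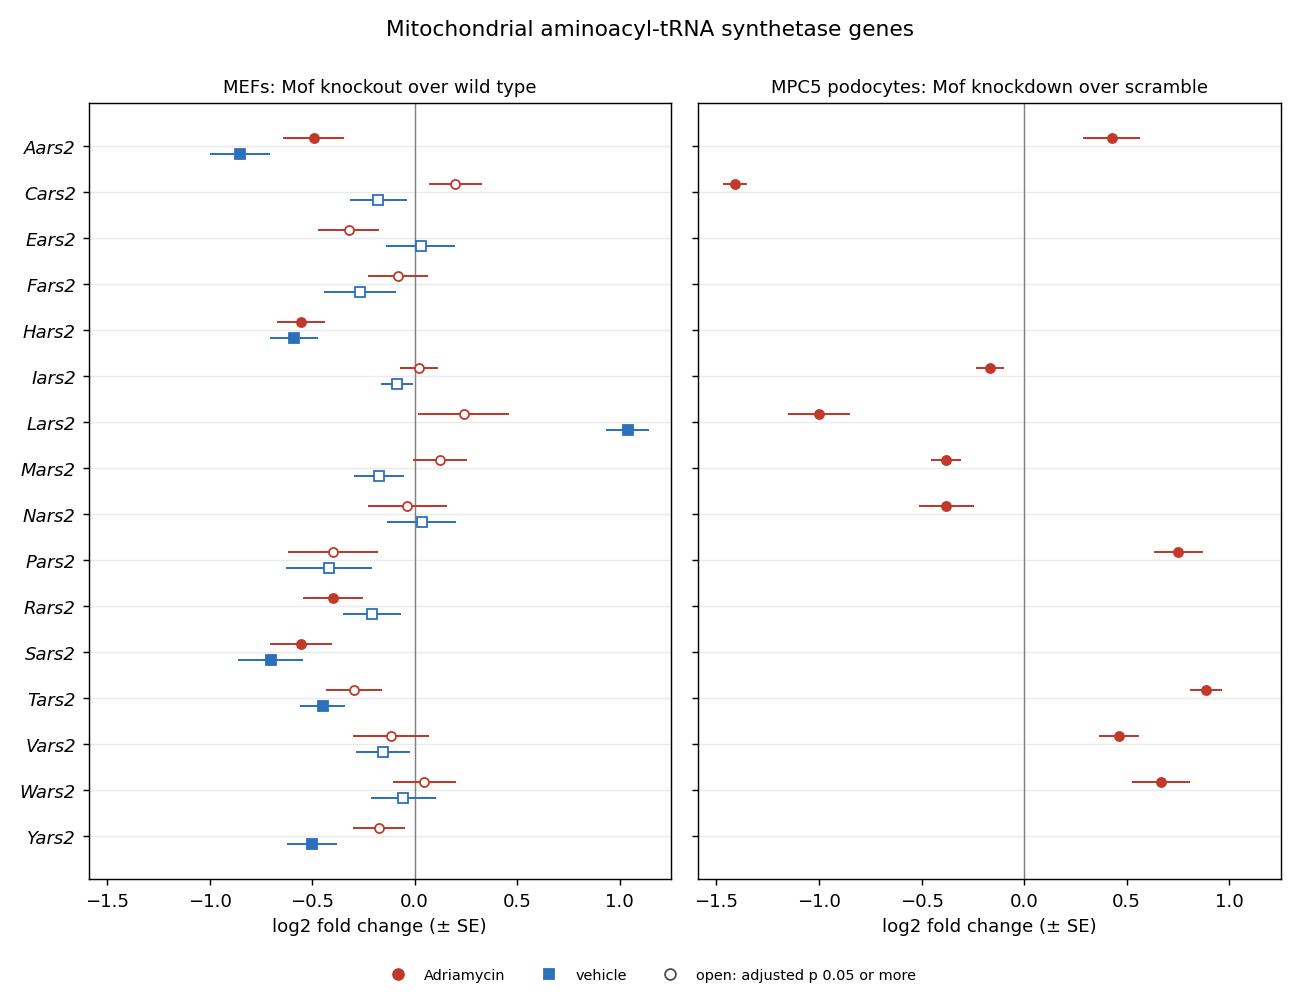
The same plot for the 16 mitochondrial synthetase genes, log2 fold change ± SE, with Adriamycin (circles) and vehicle (squares). Lars2 lies at 1.04 in MEFs with vehicle and at -0.9997 in podocytes with Adriamycin, and Aars2, Hars2 and Sars2 are filled below 0 in both MEF comparisons.

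Enzymes for the same amino acid in the cytosol and the mitochondrion were set side by side. Of 17 such pairs, counting Eprs and both phenylalanine subunits with each partner, those for alanine and serine changed in opposite directions in knockout MEFs, with either drug condition. Aars was at 167% and Aars2 at 71.1% of wild type with Adriamycin, and at 142% and 55.4% with vehicle, in the authors' deposited table. Sars was at 160% and Sars2 at 68.1% with Adriamycin, and at 144% and 61.5% with vehicle, in the authors' deposited table. The histidine pair was lower together with vehicle only by its calls: Hars was at 77.1% and Hars2 at 66.5% of wild type, whereas with Adriamycin Hars was at 91.9% and not called, and Hars2 was at 68.0%, in the authors' deposited table. Hars and Hars2 lie head to head on chromosome 18, and their exons share 195 bases on opposite strands.

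Members of the multisynthetase complex (Dars, Eprs, Iars, Kars, Lars, Mars, Qars, Rars) were counted apart from the other cytosolic enzymes in MEFs. Over all tested genes, 16.6% were higher and 16.1% lower with Adriamycin, and 17.8% were higher and 19.6% lower with vehicle. With Adriamycin 1 of 8 fell (Qars) and none rose, against 6 higher and 1 lower of the 12 cytosolic enzymes outside it. With vehicle 3 of 8 fell (Kars, Mars, Qars), a share of 37.5% that equals that of all genes changed in either direction, and none rose, against 2 higher and 5 lower of 12 outside it. Dars (aspartate), Eprs, Iars, Lars and Rars (arginine) were not called in either MEF table, with log2 fold changes between -0.10 and 0.09. By catalytic class, the mitochondrial enzymes of class II, whose active site is built on an antiparallel sheet, had 3 of 7 lower with Adriamycin and 4 of 7 with vehicle, with medians of -0.40 and -0.45. Those of class I, built on a Rossmann fold, had 1 of 9 lower with Adriamycin, and 1 lower and 1 higher of 9 with vehicle, with medians of 0.02 and -0.15. No difference between these subsets was tested.

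To ask whether the drug altered what Mof loss did, fold changes from the MEF tables, which share no sample, were subtracted gene by gene (Adriamycin minus vehicle; z test with Benjamini-Hochberg adjustment over 13973 genes). The value was higher with Adriamycin for 4 cytosolic genes, Cars, Vars, Gars and Kars, and lower for Lars2. This is 5 of 36 genes, 4 of 20 cytosolic and 1 of 16 mitochondrial, against 7.09% of all tested genes; higher values made up 3.49% and lower values 3.61% of all. Without regard to the threshold, the difference was above 0 for 18 of 20 cytosolic and 12 of 16 mitochondrial genes, with medians of 0.16 and 0.10. Over all tested genes it was above 0 for 47.0% (median -0.02). Tested genes with a mean normalized count of at least 1000 had a median log2 fold change of 0.07 with Adriamycin and 0.02 with vehicle. The share of such abundant genes with a difference above 0 was not computed, so whether the sign is particular to synthetases was not tested.

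Vars (ENSMUSG00000007029, chr17:35000987-35016322, plus strand) was at 0.22 ± 0.09 with Adriamycin, against -0.24 ± 0.08 with vehicle, in the authors' deposited tables. The difference was 0.46 ± 0.12 (adjusted p 0.00435, z test over all genes), and Vars was called in opposite directions in the MEF tables. Cars was at 0.78 ± 0.14 with Adriamycin, against 0.21 ± 0.12 with vehicle, in the authors' deposited tables, a difference of 0.57 ± 0.18 (adjusted p 0.0335, z test over all genes). Gars was at 0.53 ± 0.09 with Adriamycin, against 0.15 ± 0.09 with vehicle, in the authors' deposited tables (difference 0.38 ± 0.13, adjusted p 0.0411, z test over all genes). Gars and Cars were thus called with Adriamycin and not with vehicle. Kars was at -0.07 ± 0.08 with Adriamycin, against -0.41 ± 0.08 with vehicle, in the authors' deposited tables (difference 0.34 ± 0.11, adjusted p 0.0461, z test over all genes). For Lars2 the value was 0.24 ± 0.22 with Adriamycin, against 1.04 ± 0.10 with vehicle, in the authors' deposited tables (difference -0.80 ± 0.24, adjusted p 0.0221, z test over all genes). When every gene with a p in both tables was included, the calls of Gars, Cars and Kars ended, with adjusted p of 0.0661, 0.0540 and 0.0740. Aars and Sars differed by 0.23 (95% interval -0.04 to 0.50) and 0.15 (-0.13 to 0.43) between drug conditions and were not called.

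**Figure D4:**
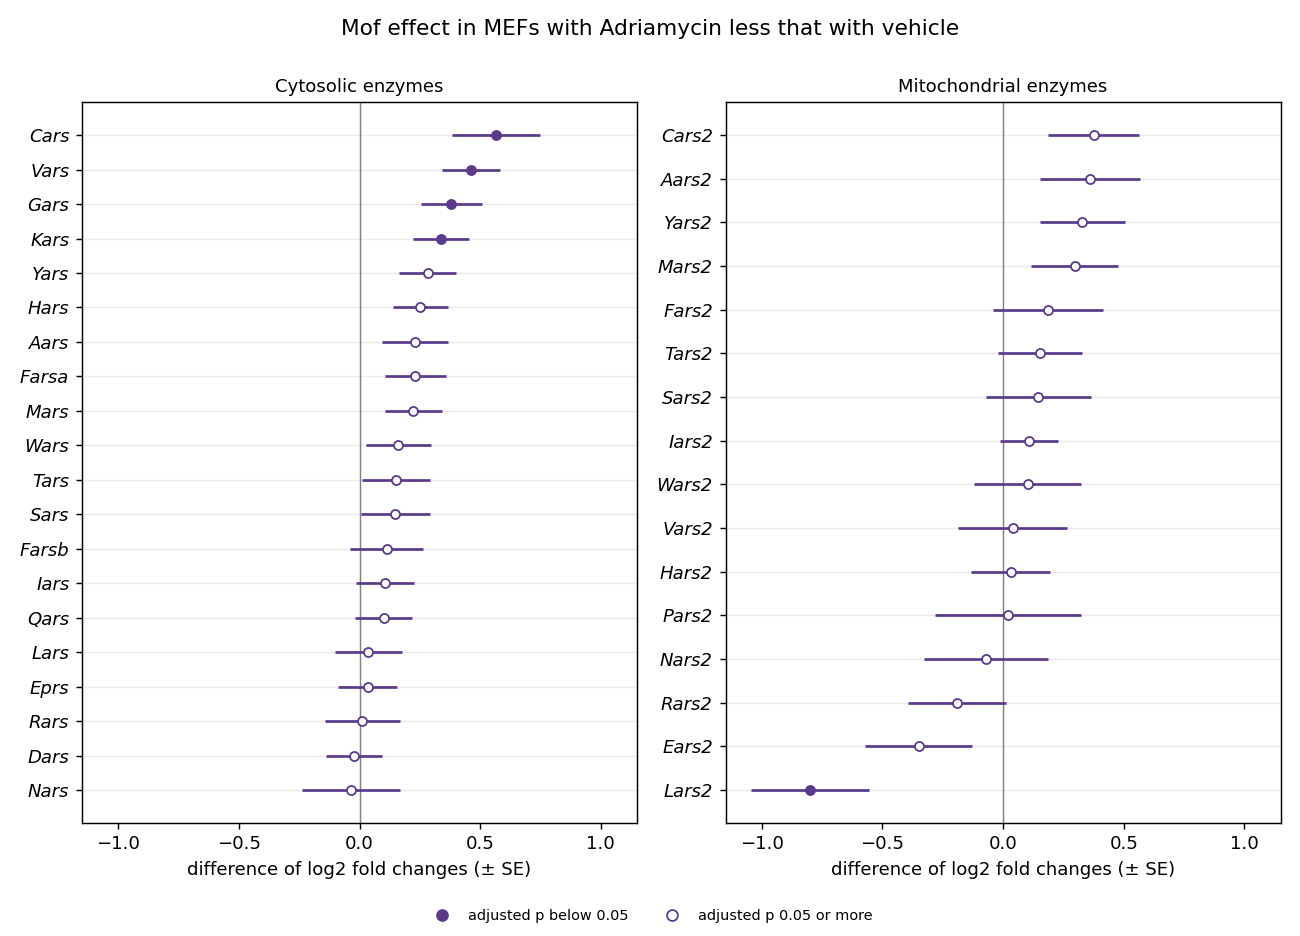
Difference of the Mof knockout effect in MEFs, log2 fold change with Adriamycin minus that with vehicle, ± SE, for cytosolic (left) and mitochondrial (right) synthetase genes ordered by value; filled points have an adjusted p below 0.05. The filled points are Cars, Vars, Gars and Kars above 0 and Lars2 below 0.

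In podocytes with Adriamycin, the Mof knockdown changed most synthetase genes, in a comparison in which most genes changed. Of the 20 cytosolic genes, 11 rose: Aars, Dars, Eprs, Farsb, Gars, Iars, Kars, Lars, Mars, Nars and Tars. Cars, Rars and Wars fell. The mitochondrial genes were divided, with 5 higher (Aars2, Pars2, Tars2, Vars2, Wars2) and 5 lower (Cars2, Iars2, Lars2, Mars2, Nars2) of 16. Together 24 of 36 genes (66.7%) were called, against 55.7% of the 17184 tested genes; higher were 11 cytosolic and 5 mitochondrial genes, against 27.8%, and lower were 3 and 5, against 27.9%. The other 12 genes (Farsa, Hars, Qars, Sars, Vars, Yars, Ears2, Fars2, Hars2, Rars2, Sars2, Yars2) were not listed, so their values are not known and no median over members can be given.

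Tars (ENSMUSG00000022241, chr15:11382301-11399665, minus strand) had the largest increase among the synthetases, at 1.09 ± 0.05 in knockdown podocytes with Adriamycin, or 2.12-fold (adjusted p 8.70e-86, DESeq2), in the authors' deposited table. Lars followed at 0.99 ± 0.06, or 1.98-fold, and Farsb at 0.85 ± 0.08, or 1.81-fold, in the authors' deposited table. Mars was at 0.74 ± 0.06 and Iars at 0.61 ± 0.05 in the authors' deposited table. The remaining cytosolic increases were smaller: Nars was at 0.38 ± 0.05, Dars at 0.33 ± 0.05, Eprs at 0.31 ± 0.04, Gars at 0.30 ± 0.05, Aars at 0.19 ± 0.05 and Kars at 0.16 ± 0.05 in the authors' deposited table. Of the complex members, 6 of 8 rose here and Rars fell, by 0.15 ± 0.05 in the authors' deposited table. Cars fell by 0.74 ± 0.05 to 59.9% of scramble, and Wars by 0.27 ± 0.06, in the authors' deposited table.

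Cars2 (ENSMUSG00000056228, chr8:11513977-11550783, minus strand) had the largest change of any synthetase listed in the 4 tables, at -1.41 ± 0.06 in knockdown podocytes with Adriamycin, which is 37.6% of scramble, with a mean normalized count of 2351 (adjusted p 5.24e-125, DESeq2), in the authors' deposited table. The cysteine enzymes of both compartments therefore fell together. Lars2 was at -0.9997 ± 0.15, or 50.01% of scramble, Mars2 (methionine) and Nars2 (asparagine) at -0.38 ± 0.07 and -0.38 ± 0.14, and Iars2 at -0.17 ± 0.07 in the authors' deposited table. Increases were those of Tars2 (0.89 ± 0.08), Pars2 (proline, 0.75 ± 0.12), Wars2 (tryptophan, 0.67 ± 0.14), Vars2 (valine, 0.46 ± 0.10) and Aars2 (0.43 ± 0.14) in the authors' deposited table. Of the 17 same-amino-acid pairs, 3 rose together (those of Aars2, Pars2 and Tars2), 1 fell together (Cars2) and 5 were opposite. The opposite pairs were isoleucine, leucine, methionine and asparagine, with the cytosolic enzyme higher, and tryptophan, with the cytosolic enzyme lower.

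With vehicle, Mof knockdown podocytes had lower Farsb and Hars, and the other 34 genes were not listed as called. Farsb (ENSMUSG00000026245, chr1:78417975-78488897, minus strand) was at -0.39 ± 0.13 (adjusted p 0.0266, DESeq2) and Hars at -0.32 ± 0.09 (adjusted p 0.00384, DESeq2) in the authors' deposited table. This is 2 of 20 cytosolic genes and 0 of 16 mitochondrial genes by DESeq2, against 14.3% of the 13876 tested genes; lower genes made up 5.64% and higher genes 8.70%. A count at an unadjusted p below 0.05 cannot be had, since this table lists called genes only. In the MEF table with vehicle the same genes also fell, Farsb by 0.44 ± 0.10 and Hars by 0.37 ± 0.08, in the authors' deposited table.

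Across the tables, Aars, Farsb and Aars2 were called in 3 or more, and Ears2 (glutamate) and Fars2 (phenylalanine) in none. Aars was higher in each table that called it, both MEF tables and podocytes with Adriamycin. Farsb was lower in MEFs with Adriamycin, MEFs with vehicle and podocytes with vehicle, at -0.33 ± 0.11, -0.44 ± 0.10 and -0.39 ± 0.13, but higher in podocytes with Adriamycin at 0.85 ± 0.08, in the authors' deposited tables. Aars2 was lower in both MEF tables and higher in podocytes with Adriamycin. Ears2 was at -0.32 ± 0.15 in MEFs with Adriamycin and 0.03 ± 0.17 with vehicle, and Fars2 at -0.08 ± 0.15 and -0.27 ± 0.17, in the authors' deposited tables. Opposite calls in any of the tables were made for 8 genes: Cars, Farsb, Kars, Mars, Vars, Aars2, Lars2 and Tars2. Of the 5 genes called with Adriamycin in both cell types, Aars and Gars rose in both, while Cars, Farsb and Aars2 moved in opposite directions. The cell types differ in line, drug dose and means of Mof loss, and no test across them was made because the podocyte tables list genes selected by p.

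Partners of the synthetases that were called fell in MEFs, and most of those called rose in podocytes with Adriamycin. The list of 19 symbols, 18 of which had a row in MEFs, included scaffold proteins, further synthetases, and enzymes that amidate, edit or hydrolyse charged tRNA. It also held other tRNA genes such as Trnt1, Mtfmt and Xpot. Of 18 tested, 4 fell in MEFs with Adriamycin and 7 with vehicle, and none rose; in podocytes with Adriamycin 12 rose and 2 fell of 14 listed, and with vehicle only Sepsecs was listed, as lower. Of all tested genes, 16.1% were lower in MEFs with Adriamycin and 19.6% with vehicle, so that the count with Adriamycin lies near the background; in podocytes with Adriamycin 27.8% were higher and 27.9% lower. Sepsecs, which makes selenocysteine on its tRNA, was at -0.79 ± 0.16 and -0.70 ± 0.18 in MEFs with Adriamycin and vehicle, and at 0.77 ± 0.13 in podocytes with Adriamycin, in the authors' deposited tables. Qrsl1 encodes a subunit of the amidotransferase that makes mitochondrial glutaminyl-tRNA. It was at -0.62 ± 0.18 in MEFs with Adriamycin, -1.003 ± 0.19 in MEFs with vehicle and -0.22 ± 0.08 in podocytes with Adriamycin in the authors' deposited tables. Of the scaffold proteins, Aimp1, chosen after its values were seen, fell in MEFs, at -0.35 ± 0.10 with Adriamycin and -0.33 ± 0.09 with vehicle, and rose in podocytes with Adriamycin, at 0.25 ± 0.06, in the authors' deposited tables.

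Genes of the ATF4 pathway, 24 in the list, had 10 higher and 0 lower in MEFs with Adriamycin and 8 higher and 3 lower with vehicle, with medians of 0.34 and 0.07. All tested genes had 16.6% higher and 16.1% lower with Adriamycin (median -0.02), and 17.8% higher and 19.6% lower with vehicle (median 0.01). In MEFs with Adriamycin, Ddit3, a stress-induced transcription factor, was at 1.502 ± 0.11 and Eif4ebp1, a repressor of cap-dependent translation, at 0.75 ± 0.15 in the authors' deposited table. With vehicle, Ddit3 (1.82 ± 0.16) and the stress sensor Sesn2 (0.73 ± 0.11) rose, while Psat1 (serine synthesis, -0.31 ± 0.11), Shmt2 (-0.34 ± 0.14) and Mthfd2 (-0.33 ± 0.14), enzymes of folate one-carbon metabolism, fell, in the authors' deposited table. Atf4 itself, also chosen after its values were seen, was not called in MEFs, at 0.24 ± 0.10 with Adriamycin and -0.17 ± 0.12 with vehicle in the authors' deposited table. In podocytes with Adriamycin 10 rose and 7 fell, against 27.8% higher and 27.9% lower of all genes: Atf4 was at 0.41 ± 0.04 and Mthfd2 at 1.43 ± 0.07, whereas Ddit3 was at -0.80 ± 0.05 and the amino acid sensor kinase Eif2ak4 at -1.10 ± 0.07, in the authors' deposited table. Phgdh, the first enzyme of serine synthesis, was the single member listed in podocytes with vehicle, as lower.

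The next 3 lists are to be read against all tested genes, of which 16.6% were higher and 16.1% lower in MEFs with Adriamycin, 17.8% and 19.6% with vehicle, 27.8% and 27.9% in podocytes with Adriamycin, and 8.70% and 5.64% with vehicle. Amino acid transporters had 4 higher and 2 lower of 12 in MEFs with Adriamycin, 4 and 4 with vehicle, 5 and 5 in podocytes with Adriamycin, and none listed with vehicle. Slc3a2, the heavy chain of several amino acid exchangers, was at 0.89 ± 0.13 in MEFs with Adriamycin and 0.45 ± 0.11 with vehicle, and at -0.16 ± 0.06 in podocytes with Adriamycin, in the authors' deposited tables. Slc38a2, a sodium-coupled neutral amino acid transporter, was at 1.05 ± 0.04 in podocytes with Adriamycin in the authors' deposited table. Translation elongation factors, 9 in the list, had 5 higher and 1 lower in MEFs with Adriamycin, 0 and 3 with vehicle, 2 and 5 in podocytes with Adriamycin, and 0 and 2 with vehicle. Eef1b2, the exchange factor that recharges the carrier of aminoacyl-tRNA, was at 0.39 ± 0.07 in MEFs with Adriamycin and -1.21 ± 0.04 in podocytes with Adriamycin in the authors' deposited tables. The mitochondrial elongation factor Gfm1 fell in all 4 tables, between -0.71 ± 0.09 in MEFs with vehicle and -0.19 ± 0.06 in podocytes with Adriamycin, in the authors' deposited tables. MYC targets of ribosome and nucleotide synthesis, 10 in the list, had 6 higher and 0 lower in MEFs with Adriamycin, 0 and 2 with vehicle, 6 and 2 in podocytes with Adriamycin, and 0 and 4 with vehicle. The nucleolar protein gene Ncl was at 0.59 ± 0.07 and Cad, which starts pyrimidine synthesis, at 0.64 ± 0.09 in MEFs with Adriamycin in the authors' deposited table. In podocytes with Adriamycin the ribosome assembly factors Nop56 and Nop58 were at 1.34 ± 0.05 and 1.03 ± 0.05, and Cad at -0.76 ± 0.04, in the authors' deposited table. For 6 of the 10, the MEF value was higher with Adriamycin than with vehicle by the z test over all genes, against 3.49% of all genes.

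Some synthetase genes overlap or share sequence with other genes, and the strand setting used in counting is not stated in the labels. Exons of 13 of the 36 genes overlap another gene in GENCODE M21, and all 13 have such an overlap on the opposite strand. Mars and Ddit3 meet tail to tail on chromosome 10 and share 68 exonic bases; Ddit3 rose where Mars fell in MEFs with vehicle and fell where Mars rose in podocytes with Adriamycin. Iars2 shares 2034 exonic bases with Rab3gap2, which was at -0.35 ± 0.05 in podocytes with Adriamycin, where Iars2 was at -0.17 ± 0.07, in the authors' deposited table. Cars2 shares 422 exonic bases with Naxd, which was at -0.38 ± 0.08 in podocytes with Adriamycin in the authors' deposited table, a smaller decrease than that of Cars2. Exons of Aars also span 1326 bases annotated as Exosc6 on the same strand. Stretches of 31 bases in the longest coding transcript were also sought in transcripts of other genes. The shares found there were 36.8% for Iars2 (Rab3gap2), 22.7% for Aars (Exosc6), 19.7% for Cars2 (Naxd) and 17.7% for Iars (mainly Gm4849). Of the 36 genes, 16 share none. What these overlaps add to the values was not tested.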

How the data were processed

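The authors deposited 4 comparison tables with, per gene, the mean normalized count over the samples of the table (a signal that is not whole counts), the log2 fold change with its SE, the Wald score, and the p-value and adjusted p. Each deposited score equals the fold change over its SE. Per the submitters' processing notes, TopHat2 2.0.13, featureCounts 1.4.5-p1, DESeq2 1.4.1 and the GRCm38 build were used; strand setting, filters and shrinkage of fold changes are not given in the sources used here. Shrinkage would lower fold changes of weakly expressed genes. No value per sample was used, so depth, outlying samples and group overlap were not assessed here.

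The MEF tables list every gene, with an adjusted p for 14139 (Adriamycin) and 15605 (vehicle). The podocyte tables list genes with an adjusted p below 0.05; the number tested was recovered from their p-values and adjusted p. From these tables, members were counted by the authors' calls and levels were divided by exon length (GENCODE M21). The MEF fold changes were subtracted and tested by a z test (Python 3.11.15, scipy 1.17.1). The z test was run on simulated data with normal errors of exactly the deposited SEs. That simulation cannot show how the test fares if the SEs are inexact or the fold changes were shrunk. Promoters are RefSeq windows (GRCm38.p6).

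All called members are named. Of each pathway list, up to 2 higher and 2 lower genes per table with the smallest adjusted p were eligible to be named. Values of some genes are not reported here. The members and lists were chosen with earlier results of these data known. Other thresholds, filters and centrings were tried as alternatives.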

Additional observations from a re-analysis of the deposited data

Results flagged for a closer look

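In MEFs, the effect of Mof loss differed between Adriamycin and vehicle for 5 of the 36 synthetase genes by the z test of the difference, with Benjamini-Hochberg adjustment over all genes. The log2 difference, Adriamycin minus vehicle, was 0.46 for Vars, 0.57 for Cars, 0.38 for Gars and 0.34 for Kars. For the mitochondrial gene Lars2 it was -0.80. The share of all tested genes called was 7.09%.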

How the results depend on the processing

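Of the counts and medians recomputed under the alternatives, 41 values stayed within 1.5 times or within the spread, and 11 moved. Some of the 41 could not move, since the filter on a mean normalized count of at least 100 removed no listed member. With a threshold of 0.01, 4 cytosolic genes changed in MEFs with Adriamycin (8 at 0.05) and 1 in podocytes with vehicle (2 at 0.05), and the MEF drug difference held for 1 cytosolic gene (4 at 0.05) and 0 mitochondrial genes (1 at 0.05). When a change of at least 1.5-fold was also required, the cytosolic counts were 3 in MEFs with Adriamycin, 0 in MEFs with vehicle, 6 in podocytes with Adriamycin and 0 in podocytes with vehicle. The mitochondrial counts were then 0 in MEFs with Adriamycin and 5 in podocytes with Adriamycin (4 and 10 without it). With every gene that had a p in both MEF tables, the drug difference held for 1 cytosolic gene. These counts fell because the criterion was stricter or more genes were tested. For single genes, 156 values kept their side of the threshold, 8 lost it and none reversed. Many of the 156 belong to genes not called as deposited, which testing more genes could hardly bring below the threshold. Centring on the median of tested genes changed no call of a named gene. Centring on tested genes with a mean normalized count of at least 1000 turned the cytosolic median in MEFs with Adriamycin to -0.04 (0.03 as deposited). No paired analysis was possible because the files used hold no value per sample, and leaving out each replicate was not run for the same reason. Small increases such as that of Vars lie near the threshold, and podocyte genes that were not listed have no value here.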
